A study of Mus musculus with 73 samples.

Results

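The inner Kcnq1ot1 domain is a cluster of imprinted genes on mouse chromosome 7, and its members here are the long noncoding RNA Kcnq1ot1 and the protein-coding genes Kcnq1, Cdkn1c, Slc22a18 and Phlda2. The members were chosen by name, and all 5 were present among the 30546 genes of the table. Over all libraries, Phlda2 had 242728 reads that could be assigned to a parent, Cdkn1c had 21899, Kcnq1ot1 had 5570, Slc22a18 had 3174 and Kcnq1 had 11. Phlda2 and Kcnq1ot1 had at least 10 reads in all 72 libraries, Cdkn1c in 68, Slc22a18 in 35 and Kcnq1 in 0.

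An imprinted gene is expressed from the copy of 1 parent. In this domain the imprint is a region of DNA methylation at the promoter of Kcnq1ot1, which is set in the egg and kept on the maternal chromosome. The unmethylated paternal copy transcribes Kcnq1ot1, and the paternal copies of nearby protein-coding genes are kept silent in cis, with Polycomb repressive complexes (PRC1, which ubiquitinates histone H2A, and PRC2, which methylates histone H3 at lysine 27) and the histone H3 lysine 9 methyltransferase G9a known to take part in placental tissue. Cdkn1c encodes p57, an inhibitor of cyclin-dependent kinases that restrains growth and is needed in trophoblast. Phlda2 encodes a small protein with a pleckstrin homology domain that restrains placental growth, Slc22a18 encodes a membrane transporter of the solute carrier family, and Kcnq1 encodes the pore subunit of a potassium channel.

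RNA was sequenced from epiblast, the source of the embryo proper, and from extraembryonic ectoderm (ExE), the trophoblast tissue that contributes to the placenta, of mouse embryos at E6.5. Each library was 1 tissue of 1 embryo, about 300 to 600 cells. Embryos of the cross written BDF1xCAST had a BDF1 mother (a hybrid laboratory strain) and a CAST father, whose sequence differs enough for reads over polymorphisms to be assigned. BDF1xCAST embryos came from injection of thawed CAST sperm into eggs of superovulated females, and blastocysts were carried by CD-1 foster females. The knockouts were made in this cross by injecting zygotes with Cas9 mRNA and 3 to 4 guide RNAs against exons of the gene, so each embryo was edited independently. The targets were Dnmt1 (the methyltransferase that copies DNA methylation at replication), G9a-Glp (Ehmt2 and Ehmt1 together), Rnf2 (the ubiquitin ligase of PRC1) and Eed (a core subunit of PRC2). The reciprocal wild type, CASTxBDF1, had a CAST mother and came from natural mating, so cross and mode of fertilisation cannot be told apart. There were 35 epiblast and 37 ExE libraries. The wild type had 7 embryos in each tissue in the BDF1xCAST cross and 4 in the CASTxBDF1 cross. Dnmt1 had 3 libraries in each tissue, G9a-Glp had 6 epiblast and 8 ExE libraries, Rnf2 had 6 and 5, and Eed had 9 and 10.

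The promoters of 3 members are shown, and the promoter source held no entry for Cdkn1c and Kcnq1. The noncoding RNA starts within the imprint region, while the protein-coding genes have promoters of their own. The sequences are from RefSeq (GRCm38.p6), run 5′ to 3′ on the strand of the gene, hold 250 bases before and 50 bases after the transcript start that the promoter table takes, and have each CCAAT box (on either strand) in capitals. That start is the 5′ end of the annotated gene for Kcnq1ot1 and lies inside the annotated gene span for Slc22a18 and Phlda2. The Kcnq1ot1 window is chr7:143296498-143296797 on the minus strand, Slc22a18 at chr7:143473539-143473838 on the plus strand and Phlda2 at chr7:143502475-143502774 on the minus strand.
Kcnq1ot1: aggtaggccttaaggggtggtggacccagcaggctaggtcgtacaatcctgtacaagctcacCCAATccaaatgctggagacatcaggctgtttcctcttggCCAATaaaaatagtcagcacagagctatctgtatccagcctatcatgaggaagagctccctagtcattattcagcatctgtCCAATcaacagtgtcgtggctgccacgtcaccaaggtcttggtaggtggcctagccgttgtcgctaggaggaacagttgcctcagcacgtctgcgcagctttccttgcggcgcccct
Slc22a18: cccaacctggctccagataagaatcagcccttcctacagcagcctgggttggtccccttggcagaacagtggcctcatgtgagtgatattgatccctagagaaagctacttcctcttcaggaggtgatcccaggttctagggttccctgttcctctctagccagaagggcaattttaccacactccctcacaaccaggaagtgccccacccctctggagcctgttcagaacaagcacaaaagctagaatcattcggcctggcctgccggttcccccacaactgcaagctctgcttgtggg
Phlda2: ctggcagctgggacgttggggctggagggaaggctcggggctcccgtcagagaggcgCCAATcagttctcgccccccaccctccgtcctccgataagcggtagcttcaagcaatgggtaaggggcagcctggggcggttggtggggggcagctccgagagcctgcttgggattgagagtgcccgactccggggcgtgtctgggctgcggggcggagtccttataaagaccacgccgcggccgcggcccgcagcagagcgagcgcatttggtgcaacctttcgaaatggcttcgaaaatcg
The letters CCAAT, searched on both strands, occurred 3 times in the Kcnq1ot1 window, 1 time in that of Phlda2 and 0 times in that of Slc22a18. At least 1 occurred in 37.41% of 32851 RefSeq promoters of the same length, and at least 3 in 3.37%. The dinucleotide CG, the site of DNA methylation, occurred 26 times in the Phlda2 window, 9 times in that of Kcnq1ot1 and 2 times in that of Slc22a18, against a median of 7 over all promoters. TATAAA occurred 1 time in the Phlda2 window and 0 times in the other two, and 13.62% of promoters hold it. TGCCGC occurred in none of the 3 windows, and 11.61% of promoters hold it. These are counts of letters in a window and say nothing of binding.

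In the deposited mm10 coordinates all 5 genes lie on chromosome 7. Kcnq1ot1 spans 143213111 to 143296547, Cdkn1c 143458339 to 143461073, Slc22a18 143473726 to 143499334 and Phlda2 143501545 to 143503145. Kcnq1 is given as 143106742 to 143200000, which ends before Kcnq1ot1 begins, whereas RefSeq runs Kcnq1 on to 143427050, across Kcnq1ot1 on the opposite strand. The library kit does not mark strand, so reads of an intron of Kcnq1 and reads of Kcnq1ot1 cannot be told apart in that stretch.

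Library size, the targeted genes and tissue markers bear on what follows. Libraries held 1141414 to 17653087 assigned reads, the deepest in the Rnf2 groups. Eed reads were under the wild-type range in 9 of 9 epiblast and 10 of 10 ExE knockouts, and Dnmt1 in 3 of 3 and 2 of 3. Ehmt1 did so in 2 of 6 and 5 of 8 G9a-Glp libraries, Ehmt2 in 0 of 6 and 6 of 8, and Rnf2 in 4 of 6 and 0 of 5, so the reads give no sign of the edit in the libraries labelled Rnf2 ExE. Reads over a gene cut in its exons need not fall, and whether these embryos had lost the protein was not tested. Markers of the labelled tissue were high for Fgf5 (289 to 574 CPM, counts per 1000000 assigned reads, in wild-type BDF1xCAST epiblast and 0 to 1.08 in ExE) and Elf5 (0 to 3.81 and 171 to 363). Pou5f1, a defining gene of the epiblast, had only 0 to 1.61 CPM in epiblast. Only reads over polymorphisms are counted, and how many polymorphisms a gene offers is not given. Low reads therefore do not tell how much Pou5f1 RNA was present. By median, Tdgf1, Dnmt3b, Otx2 and Nanog were also higher in epiblast, and Cdx2, Esrrb, Tfap2c and Bmp4 in ExE. Other listed markers did not follow the label. The epiblast marker Utf1 had a median of 65.3 CPM in epiblast and 215 in ExE. The ExE marker Sox2 had 19.8 and 6.55, and the ExE marker Eomes 97.4 and 107. Markers of visceral endoderm, which the dissection removes, were high in 2 wild-type epiblasts: their sum was 466.5 CPM in BDF1xCAST embryo 8 and 2087.7 in CASTxBDF1 embryo 2, against medians of 4.72 and 22.9 in the groups. In the knockout epiblasts the highest sums were 287.4 CPM in G9a-Glp embryo 5 (group median 71.2), 182.4 in Dnmt1 embryo 1 (29.8), 78.7 in Rnf2 embryo 6 (11.6) and 43.1 in Eed embryo 6 (19.2). Results that change without one of the named wild-type libraries or the named Dnmt1 library are given with and without it. The named G9a-Glp, Rnf2 and Eed epiblast libraries were not left out singly, so whether results change without them was not tested. In bulk tissue, fewer cells expressing a gene and less of its RNA per cell cannot be told apart.

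Kcnq1ot1, the noncoding RNA of the domain, came mostly from the father in the wild type. In BDF1xCAST epiblast 4 of 7 embryos had 0% maternal reads, and embryos 6, 3 and 8 had 7.14, 20.8 and 24.7%. In ExE 6 of 7 had 0%, and embryo 7 had 8.82%. The CASTxBDF1 embryos ran from 0 to 2.63% in epiblast and from 0 to 3.33% in ExE. Over both crosses, which separates the parent from the strain, the log2 ratio of maternal to paternal reads was -4.91 ± 0.54 (SE) in epiblast (edgeR adjusted p 7.06e-06) and -5.69 ± 0.40 in ExE (edgeR adjusted p 6.64e-09). All members tested had a parental bias, 3 of 3 in epiblast and 4 of 4 in ExE, against a background of 0.319% of 8469 genes and 0.832% of 8654 genes called.

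In the Dnmt1 knockouts Kcnq1ot1 was close to equal expression from both parents. The maternal share in epiblast was 58.5, 51.3 and 60.6% in embryos 1, 2 and 3, and in ExE 53.3, 63.6 and 70.2%. Every one of these 6 libraries lay above the highest wild-type library of its tissue. The shift in the log2 ratio was 3.96 ± 0.70 in epiblast (edgeR adjusted p 0.00378) and 6.33 ± 0.64 in ExE (edgeR adjusted p 2.75e-06). The shift passed the threshold for 2 of the 2 members tested in epiblast, where 0.908% of all genes were called, and for 2 of 3 in ExE, where 0.856% were. In epiblast it missed the threshold without Dnmt1 embryo 1 (edgeR adjusted p 0.0540), the library with the high visceral endoderm sum, and with limma (adjusted p 0.224). The part of visceral endoderm in this result was not tested.

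The gain came from the maternal allele. In epiblast the maternal reads stood at 68.0, 52.6 and 26.8 CPM against 0 to 18.3 in the wild type, and in ExE at 20.4, 16.4 and 47.8 CPM against 0 to 0.987. The maternal allele rose by 3.89 ± 0.91 log2 units in epiblast (edgeR adjusted p 0.0148) and by 6.95 ± 0.66 in ExE (edgeR adjusted p 5.13e-05). The pooled wild-type ExE libraries held 3 maternal reads of Kcnq1ot1 and the Dnmt1 libraries 179, a ratio per library read of 201.7 with a 95% exact interval of 67.9 to 987 that covers counting error only. The paternal allele changed by 0.26 ± 0.35 in epiblast (edgeR adjusted p 0.718) and by 0.57 ± 0.38 in ExE (edgeR adjusted p 0.350), short of the threshold in both tissues. Total Kcnq1ot1 rose 2.44-fold in epiblast (edgeR adjusted p 0.0318) and 4.03-fold in ExE (edgeR adjusted p 0.00274). The epiblast rises, total and maternal, missed the threshold without Dnmt1 embryo 1 (edgeR adjusted p 0.158 and 0.0765), and the total also without embryo 2 (0.115). DESeq2 did not call the maternal rise in epiblast (adjusted p 0.242).

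In the G9a-Glp knockouts Kcnq1ot1 was a mostly paternal transcript. Its maternal share ran from 0 to 8.70% in 6 epiblasts and from 0 to 9.09% in 8 ExE libraries, which overlapped the wild type in both tissues, and neither shift passed the threshold (edgeR adjusted p 0.305 and 0.841). Total reads in ExE averaged 21.1 ± 19.2 CPM (SD, n = 8) against 9.10 ± 3.82 (n = 7), a 2.20-fold difference that missed the threshold (edgeR adjusted p 0.0802). DESeq2 called it (adjusted p 0.0400).

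In the Polycomb knockouts some ExE libraries held maternal Kcnq1ot1 reads and others none. Libraries held 12 to 180 reads of the gene in Rnf2 ExE, 12 to 177 in Eed ExE and 10 to 41 in wild-type BDF1xCAST ExE. Rnf2 embryo 5 had 0 maternal reads of 12 and Eed embryo 9 had 1 of 12, so such shares are coarse. The maternal share in Rnf2 ExE was 21.4, 13.3, 0, 40.5 and 0% in embryos 2, 4, 5, 6 and 7. In Eed ExE it was 0% in embryos 1, 2, 3 and 7, then 8.33, 14.6, 21.1, 28.8, 38.0 and 53.3% in embryos 9, 10, 6, 4, 5 and 8. Both groups overlapped the wild type, with an SD of 16.9 and 18.7 percentage points against 3.33. The shift did not pass the threshold in either (3.32 ± 1.15 log2 units, edgeR adjusted p 0.245, and 3.25 ± 1.16, edgeR adjusted p 0.176). Tested alone, the maternal allele was higher by 3.69 ± 1.10 in Rnf2 ExE (edgeR adjusted p 0.0318) and by 4.16 ± 1.24 in Eed ExE (edgeR adjusted p 0.0127). The pooled reads rose from 3 in the wild type to 95 and 116, ratios of 17.3 (5.74 to 85.4) and 26.5 (8.86 to 131). The Rnf2 rise missed the threshold without embryo 2, 4 or 6 (edgeR adjusted p 0.0596, 0.0531 and 0.106), without embryos 2, 5 and 6 together (0.285) and with DESeq2 (adjusted p 0.221).

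In epiblast the Polycomb knockouts did not follow the same direction. Maternal Kcnq1ot1 reads made up 0.671 to 25.6% in Rnf2 epiblast, and 1 of 6 embryos lay above the wild-type range. In Eed epiblast 7 of 9 embryos had 0%, and the highest had 3.70%. The maternal allele was lower there by 4.57 ± 1.17 log2 units (edgeR adjusted p 0.00591). That difference rests on wild-type embryos 3, 6 and 8, which hold the 41 maternal reads of their group, and DESeq2 did not call it (adjusted p 0.0539). The test of the tissues against each other found the Eed shift higher in ExE than in epiblast by 7.16 ± 1.73 (edgeR adjusted p 0.0252), and it missed the threshold without wild-type epiblast embryo 8 (edgeR adjusted p 0.0897), with limma (0.442) and with DESeq2 (0.257).

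In total level, the Dnmt1 epiblast mean was highest at 87.7 ± 38.2 CPM (SD, n = 3) and Dnmt1 ExE followed at 44.0 ± 21.7 (n = 3). Next came G9a-Glp and wild-type BDF1xCAST epiblast, both at 32.1 CPM, Eed epiblast at 28.2, Rnf2 epiblast at 25.3, G9a-Glp ExE at 21.1, Eed ExE at 19.2, CASTxBDF1 epiblast at 16.8 and CASTxBDF1 ExE at 13.3. Rnf2 ExE with 12.9 ± 4.19 (n = 5) and wild-type BDF1xCAST ExE with 9.10 ± 3.82 (n = 7) were lowest. Only the step between the Dnmt1 groups exceeded the SD of both neighbours. Wild-type ExE had 2.30-fold less Kcnq1ot1 than epiblast (edgeR adjusted p 0.00176).

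**Figure D1:**
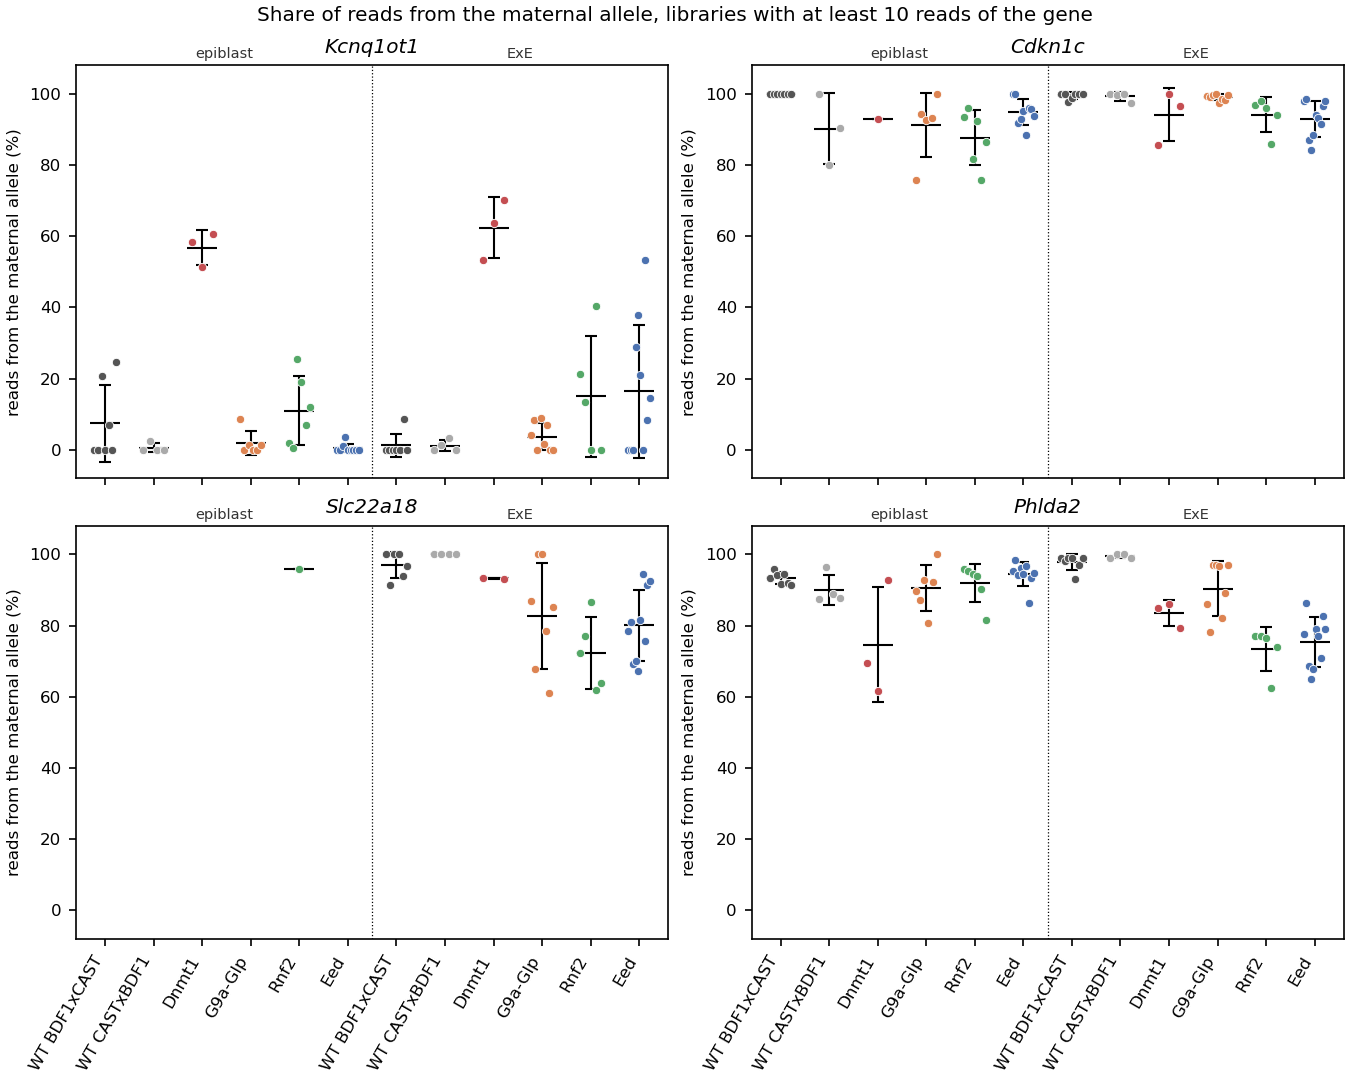
Share of reads from the maternal allele (y axis, percent) of 4 members in each of the 12 groups, epiblast left and ExE right of the dotted line. Each point is 1 library with at least 10 reads of the gene, the bar is the mean and the whisker 1 SD. The 6 Dnmt1 libraries of Kcnq1ot1 stand between 51.3 and 70.2%, and Phlda2 in Rnf2 and Eed ExE stands between 62.5 and 86.4%, below every wild-type library of that tissue.

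Kcnq1 itself had almost no assigned reads. It had 0 reads in 10 of the 12 groups, 1 in G9a-Glp ExE and 10 in Eed ExE, where 5 of 10 libraries held any and 9 of the 10 reads were maternal. The number of polymorphisms the gene offers is not given, so this does not tell how much Kcnq1 RNA was present, and no comparison was made.

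Cdkn1c, which encodes the cell cycle inhibitor p57, was maternal in the wild type and higher in ExE. In BDF1xCAST epiblast 135 of 135 reads were maternal, in 7 of 7 embryos. The 3 CASTxBDF1 epiblasts with at least 10 reads had 100, 80.0 and 90.5%. In ExE the share ran from 97.7 to 100% in BDF1xCAST and from 97.4 to 100% in CASTxBDF1 embryos. The parental log2 ratio was 5.40 ± 0.57 in epiblast (edgeR adjusted p 7.80e-05) and 7.34 ± 0.29 in ExE (edgeR adjusted p 8.15e-13). Total reads were 6.20-fold higher in ExE than in epiblast (edgeR adjusted p 1.03e-10).

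Cdkn1c was higher than in the wild type in both tissues of the libraries labelled Rnf2 and Eed. In epiblast the wild type ran from 3.63 to 12.2 CPM, with a median of 10.3. Rnf2 ran from 20.5 to 35.7 with a median of 32.1, and Eed from 17.3 to 40.8 with a median of 31.8. In ExE the wild type ran from 29.5 to 65.0 with a median of 35.0, Rnf2 from 118 to 217 with a median of 138 and Eed from 139 to 653 with a median of 266. No Rnf2 or Eed library overlapped the wild type of its tissue. The rise was 3.66-fold in Rnf2 epiblast (edgeR adjusted p 9.94e-05), 3.59-fold in Rnf2 ExE (1.33e-05), 3.06-fold in Eed epiblast (7.72e-05) and 7.28-fold in Eed ExE (1.70e-06). Cdkn1c was the 1 member of 3 called in each of those epiblasts, where 31.1% (Rnf2) and 36.9% (Eed) of all genes were called. It was 1 of 4 in Rnf2 ExE and 1 of 2 called among 4 in Eed ExE, where 22.2 and 40.8% of all genes were called.

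Most of that rise was on the maternal allele, which is the expressed one. Maternal reads rose by 1.67 ± 0.26 log2 units in Rnf2 epiblast (edgeR adjusted p 0.000304), 1.77 ± 0.21 in Rnf2 ExE (6.78e-05), 1.54 ± 0.25 in Eed epiblast (0.000150) and 2.73 ± 0.32 in Eed ExE (1.95e-06). In Eed ExE the maternal reads averaged 301 ± 170 CPM (SD, n = 10) against 40.1 ± 12.7 (n = 7) in the wild type. The paternal reads averaged 31.4 ± 34.8 against 0.151 ± 0.274, so the silent allele of the knockout stayed far below its maternal one.

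The paternal Cdkn1c allele nevertheless rose by the larger ratio. In Rnf2 epiblast all 6 libraries held paternal reads, at 0.821 to 8.65 CPM, where the wild type had 0 of 135 reads, which allows a share of up to 2.22%. Against 3 reads as the most that a count of 0 allows over the group, the allele was 19.04-fold higher in Rnf2 and 9.47-fold higher in Eed epiblast. In Eed epiblast 7 of 9 libraries held paternal reads. These folds leave out the counting error of the knockout reads. In ExE the 3 pooled wild-type reads became 287 in Rnf2, a ratio of 52.3 (17.7 to 255), and 950 in Eed, a ratio of 217 (74.2 to 1056). The edgeR test called the paternal rise in all 4 groups, with adjusted p 0.000755 and 2.68e-05 in Rnf2 epiblast and ExE and 0.00265 and 1.19e-05 in Eed. The maternal share in Eed ExE ran from 84.3 to 98.5%, and the shift of the ratio was -4.15 ± 1.00 (edgeR adjusted p 0.0181). Without wild-type ExE embryo 6 it missed the threshold (edgeR adjusted p 0.0569). In Rnf2 the shift did not pass (edgeR adjusted p 0.116 in epiblast and 0.129 in ExE). In epiblast all 6 libraries, at 75.8 to 96.0%, lay below the 100% of the BDF1xCAST wild type. Those wild-type libraries held only 11 to 29 reads of the gene each, against 198 to 515 in Rnf2. The 3 CASTxBDF1 wild-type epiblasts with enough reads, at 80.0 to 100%, overlapped the Rnf2 range. The Rnf2 shift passed in ExE with sex as a covariate of the ratio (edgeR adjusted p 0.00738).

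The other knockouts moved Cdkn1c in opposite directions. In Dnmt1 ExE the total fell to 7.13, 8.19 and 24.9 CPM, 3.48-fold below the wild type (edgeR adjusted p 0.00538). None of the 3 libraries reached the wild-type range. The maternal allele fell by 1.86 ± 0.38 log2 units (edgeR adjusted p 0.00618). In Dnmt1 epiblast the total was 2.81 to 9.39 CPM (edgeR adjusted p 0.304), and 6 of 24 reads were paternal. That was 7.08-fold above the wild type, again taken at 3 reads (edgeR adjusted p 0.0627, and 0.0411 without wild-type epiblast embryo 8). In G9a-Glp ExE the total rose 2.25-fold, from 40.2 ± 12.6 to 95.5 ± 50.6 CPM (edgeR adjusted p 0.00914), and the rise was maternal, with a maternal share of 97.4 to 100%. G9a-Glp epiblast had 4.89 to 10.9 CPM, within the wild-type range, with 12 paternal reads of 129. These were 4.64-fold above the wild type taken at 3 reads (edgeR adjusted p 0.0319), and DESeq2 did not call them (adjusted p 0.101). Both folds take the BDF1xCAST wild type alone and leave out the counting error of the knockout reads. CASTxBDF1 wild-type epiblast held 5 paternal reads of 64, at a mean of 0.489 CPM, against 0.752 in G9a-Glp, 1.14 in Dnmt1, 1.5 in Eed and 4.07 in Rnf2 epiblast.

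Ranked by mean level, Cdkn1c went from Eed ExE (333 ± 202 CPM, n = 10) through Rnf2 ExE (149 ± 40.1, n = 5), G9a-Glp ExE (95.5 ± 50.6, n = 8), CASTxBDF1 ExE (56.6 ± 14.1, n = 4) and wild-type BDF1xCAST ExE (40.2 ± 12.6, n = 7) to Rnf2 epiblast (30.7 ± 5.54, n = 6) and Eed epiblast (28.9 ± 7.18, n = 9). Dnmt1 ExE (13.4 ± 9.997, n = 3) and the other 4 epiblast groups (means of 5.24 to 8.56) followed. The steps from Rnf2 to G9a-Glp ExE, from CASTxBDF1 to BDF1xCAST ExE and from Eed epiblast to Dnmt1 ExE exceeded the SD of both neighbours, and the others did not.

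**Figure D2:**
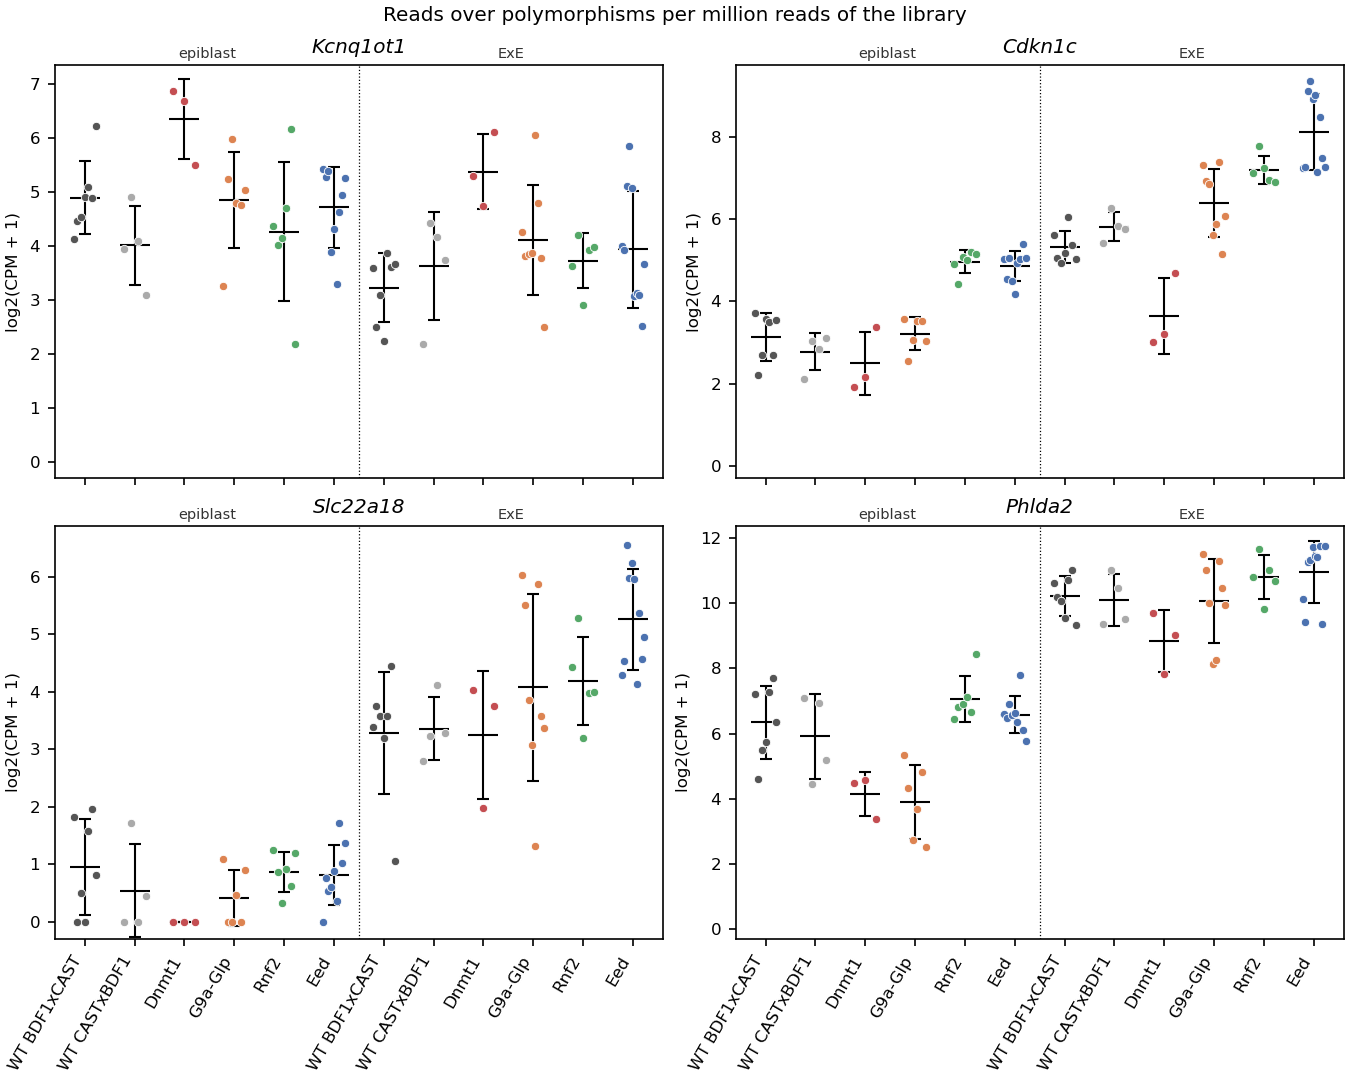
Reads over polymorphisms as a share of all assigned reads of the library, as log2(CPM + 1) on the y axis, for 4 members in each of the 12 groups. Each point is 1 library, the bar is the mean and the whisker 1 SD. Cdkn1c in Rnf2 and Eed libraries stands above every wild-type BDF1xCAST library of its tissue, and Slc22a18 is near 0 in epiblast.

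Slc22a18, the transporter gene, was expressed in ExE and had too few reads to be tested in epiblast. Epiblast libraries held 0 to 24 reads, and all 21 reads of the BDF1xCAST and all 7 of the CASTxBDF1 wild type were maternal. In wild-type ExE the BDF1xCAST embryos had 1.07 to 20.7 CPM with a median of 10.99. Of the 6 with at least 10 reads, 3 had 100% maternal reads and the others 91.4, 93.9 and 96.8%. All 4 CASTxBDF1 embryos had 100%. The parental log2 ratio was 6.37 ± 0.45 (edgeR adjusted p 6.92e-08).

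In Rnf2 ExE the paternal allele of Slc22a18 rose in every library. The maternal share was 72.4, 77.2, 86.7, 62.0 and 63.8% in embryos 2, 4, 5, 6 and 7, all below the lowest wild-type embryo. The shift was -3.54 ± 0.54 (edgeR adjusted p 0.00174), and the alternative with limma did not call it (adjusted p 0.0937). Paternal reads were 1.08 to 8.67 CPM against 0 to 1.07, above the wild-type range in 5 of 5 libraries though only just in embryo 5, a change of 3.87 ± 0.61 (edgeR adjusted p 0.000296). Maternal reads differed by 0.44 ± 0.42 (edgeR adjusted p 0.510) and total reads 1.81-fold (edgeR adjusted p 0.148).

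In Eed ExE both alleles rose. The maternal share ran from 67.1 to 94.3% with a median of 79.6%, and 8 of 10 embryos lay below the lowest wild-type embryo at 91.4%. The shift was -2.85 ± 0.61 (edgeR adjusted p 0.00615). Paternal reads rose by 4.60 ± 0.77 log2 units (edgeR adjusted p 6.44e-05) and maternal reads by 1.55 ± 0.36 (edgeR adjusted p 0.00229). The total rose 3.70-fold, from 10.6 ± 5.84 to 44.1 ± 26.8 CPM (edgeR adjusted p 0.000732).

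In G9a-Glp ExE 5 of 7 embryos lay below the wild type. The maternal share was 86.8, 67.9, 78.4 and 61.1% in embryos 1, 2, 8 and 9, and 100, 100 and 85.3% in embryos 3, 4 and 10, while embryo 7 had 4 reads. The shift was -2.62 ± 0.72 and missed the threshold (edgeR adjusted p 0.0910). The paternal allele taken alone rose by 3.61 ± 0.93 (edgeR adjusted p 0.0136), with 7 pooled reads in the wild type and 96 in the knockout. In Dnmt1 ExE 4 of 64 reads were paternal, at a maternal share of 93.3 and 93.1% in the 2 libraries with enough reads, and neither the total nor an allele passed the threshold (edgeR adjusted p 0.800 for the total, 0.780 for the maternal and 0.772 for the paternal allele). Mean levels in ExE ran from 44.1 in Eed through 26.2 ± 25.1 in G9a-Glp, 19.3 ± 11.4 in Rnf2, 10.6 in BDF1xCAST, 10.2 in Dnmt1 and 9.88 in CASTxBDF1 embryos, and every step was smaller than an SD of one of its neighbours.

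Phlda2, the growth-restraining placental gene, had the most reads of the 5 members. In wild-type BDF1xCAST epiblast the maternal share was 91.4 to 95.8% with a median of 93.4%, and in CASTxBDF1 epiblast 87.3 to 96.4%. In ExE it was 93.0% in embryo 6 and 97.0 to 99.0% in the other 6 BDF1xCAST embryos, and 99.0 to 100% in CASTxBDF1 embryos. Those ExE shares are whole percentages, because in all 7 and all 4 libraries the deposited score did not fix the allele counts and the rounded ratio set them. A wild-type paternal share in ExE is thus known to 0.5 percentage points. The parental log2 ratio was 3.38 ± 0.13 in epiblast (edgeR adjusted p 1.37e-13) and 6.92 ± 0.34 in ExE (edgeR adjusted p 2.75e-11). With the rounded shares moved 0.5 percentage points toward equal alleles, the ExE ratio was 6.03 (edgeR adjusted p 4.77e-13).

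The level of Phlda2 in the wild type was 13.7-fold higher in ExE (edgeR adjusted p 1.68e-09). All 3 members tested differed between the tissues, against 65.7% of 9293 genes. The maternal bias was also stronger in ExE, by 2.87 ± 0.58 log2 units (edgeR adjusted p 0.0172), the 1 call among 3 members where 0.264% of 7568 genes were called. With epiblast and ExE of the same embryo paired it missed the threshold (edgeR adjusted p 0.0531), and it also did so without CASTxBDF1 epiblast embryo 1 (0.124) or 3 (0.0705) and with limma (adjusted p 0.0942).

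Paternal Phlda2 rose in the ExE of 3 knockouts. The maternal share in Rnf2 ExE was 77.0, 77.0, 76.5, 62.5 and 74.0% in embryos 2, 4, 5, 6 and 7. In Eed ExE it ran from 65.0 to 86.4% with a median of 77.3%. All 5 and all 10 libraries were under the 93.0% of the lowest wild-type embryo. The shift was -3.98 ± 0.36 in Rnf2 (edgeR adjusted p 3.69e-06) and -3.86 ± 0.31 in Eed (edgeR adjusted p 6.71e-09). These were 1 of 2 calls among 4 members in Rnf2 ExE and 1 of 3 among 4 in Eed ExE, against 0.922 and 2.66% of all genes. In G9a-Glp ExE embryos 1, 2, 8 and 9 had 86.0, 78.1, 82.0 and 89.0%, and embryos 3, 4, 7 and 10 had 96.6 to 97.1%, so that 4 of 8 lay below the wild type and 4 within its range. The shift was -2.17 ± 0.50 (edgeR adjusted p 0.0260), the 1 call among 4 members where 1.10% of all genes were called, and limma did not call it (adjusted p 0.219).

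The paternal allele carried that change and the maternal allele did not pass the threshold. Paternal reads averaged 34.7 ± 41.3 CPM (SD, n = 7) in wild-type ExE, 193 ± 208 in G9a-Glp (n = 8), 514 ± 242 in Rnf2 (n = 5) and 612 ± 355 in Eed (n = 10). Paternal reads were 211 to 772 CPM in Rnf2, above the highest wild-type library at 118 in 5 of 5, and 92.6 to 1079 in Eed, where 8 of 10 did so. The rise was 2.39 ± 0.75 log2 units in G9a-Glp (edgeR adjusted p 0.0432), 3.85 ± 0.55 in Rnf2 (0.000119) and 4.02 ± 0.59 in Eed (1.57e-05). Maternal reads averaged 1241 ± 488 CPM in the wild type, 1415 ± 669 in Rnf2 and 1705 ± 784 in Eed, with differences of 0.15 ± 0.28 (edgeR adjusted p 0.758) and 0.35 ± 0.32 (0.417). Total reads did not pass in either (edgeR adjusted p 0.170 and 0.0835). With every share that the rounded ratio set moved 0.5 percentage points toward equal alleles, the Phlda2 shift was -3.69 in Rnf2 (edgeR adjusted p 1.01e-06), -3.57 in Eed (4.17e-09), -2.83 in Dnmt1 (0.000229) and -1.93 in G9a-Glp ExE (0.0297). The paternal rise in G9a-Glp then missed the threshold narrowly, at 2.19 (edgeR adjusted p 0.0503).

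In the Dnmt1 knockouts Phlda2 fell, and the maternal allele with it. In epiblast the total was 21.6, 22.8 and 9.39 CPM in embryos 1, 2 and 3. All were less than the 23.4 CPM of the lowest BDF1xCAST wild-type embryo, embryos 1 and 2 only narrowly. The lowest CASTxBDF1 wild-type embryo had 20.97 CPM, less than embryos 1 and 2. In ExE it was 835, 226 and 514 CPM against 648 to 2068 in the wild type, below the lowest in 2 of 3. The total fell 6.58-fold in epiblast (edgeR adjusted p 0.0147) and 2.84-fold in ExE (edgeR adjusted p 0.0169). Maternal reads fell by 3.11 ± 0.64 log2 units in epiblast (edgeR adjusted p 0.00726) and by 1.73 ± 0.39 in ExE (edgeR adjusted p 0.00951). Paternal reads differed by -0.65 ± 0.72 in epiblast (edgeR adjusted p 0.643) and 1.11 ± 0.65 in ExE (0.287). The latter passed without wild-type ExE embryo 6 (edgeR adjusted p 0.0164), the embryo with the 93.0% share, and with no filter on low counts (0.000110).

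The maternal share of Phlda2 fell with it. It was 69.6, 61.5 and 92.9% in Dnmt1 epiblast, where embryo 3 with 14 reads overlapped the wild type, and 85.0, 86.0 and 79.4% in ExE, where none did. The shift was -2.43 ± 0.44 in epiblast (edgeR adjusted p 0.00499) and -3.12 ± 0.44 in ExE (edgeR adjusted p 0.000352). The epiblast shift missed the threshold without Dnmt1 embryo 1 or 2 (edgeR adjusted p 0.159 and 0.116), with limma (0.149) and when all groups of the tissue shared 1 fit (0.0588). In ExE limma did not call it (adjusted p 0.0875). The fall in total reads also missed the threshold without embryo 1 or 3 in epiblast (edgeR adjusted p 0.0567 and 0.0811) and without embryo 2 or 3 in ExE (0.0738 and 0.0846). The maternal fall missed it without embryo 3 in epiblast (0.0534) and in ExE (0.0687).

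In G9a-Glp epiblast both alleles of Phlda2 were low. Of 6 libraries, 4 lay below the lowest BDF1xCAST wild-type one. They had 4.70 to 39.9 CPM with a median of 15.5, against 23.4 to 209 with a median of 80.0 in the wild type. The total was 5.78-fold lower (edgeR adjusted p 0.00159), the maternal allele by 2.58 ± 0.52 log2 units (0.00132) and the paternal by 1.93 ± 0.61 (0.0212). The maternal share of 80.6 to 100% did not shift beyond the threshold (edgeR adjusted p 0.535). Without embryos 2 and 7, the fall of the paternal allele missed the threshold (edgeR adjusted p 0.0846).

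In Rnf2 and Eed epiblast no test of Phlda2 passed the threshold. The shares were 81.6 to 96.0% and 86.4 to 98.4%, with edgeR adjusted p 0.979 and 0.931 for the shift. Embryo 8 of each group stood apart, with 343 CPM and 81.6% in Rnf2 and 221 CPM and 86.4% in Eed. The same libraries had the highest ectoplacental marker sum of their groups, 40.8 and 27.3 CPM against medians of 9.91 and 11.6, nearly all from Ascl2. Rnf2 embryo 8 also had the highest ExE marker sum of its group, 159.4 CPM against a median of 88.5. The part of these tissues in the result was not tested. The difference between the tissues passed the test for Phlda2 in both knockouts, at -3.87 ± 0.69 in Rnf2 (edgeR adjusted p 0.00292) and -3.93 ± 0.62 in Eed (edgeR adjusted p 8.97e-05). The members called were 1 of 3 in Rnf2 and 2 of 3 in Eed, where 0.274 and 0.852% of all genes were called. For Dnmt1 0 of 2 and for G9a-Glp 0 of 3 members were called, where 0 and 0.350% of genes were. In Dnmt1, 337 genes had an unadjusted edgeR p below 0.05.

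By mean level, Phlda2 ran from Eed ExE (2317 ± 1097 CPM, n = 10) and Rnf2 ExE (1929 ± 860, n = 5) through G9a-Glp (1433 ± 976, n = 8), BDF1xCAST (1276 ± 515, n = 7), CASTxBDF1 (1220 ± 669, n = 4) and Dnmt1 ExE (525 ± 305, n = 3). The epiblast groups were far lower, from Rnf2 (149 ± 96.4, n = 6), Eed (102 ± 48.3, n = 9), BDF1xCAST (101 ± 69.1, n = 7) and CASTxBDF1 (78.0 ± 58.3, n = 4) to G9a-Glp (18.1 ± 13.6, n = 6) and Dnmt1 (17.9 ± 7.40, n = 3). The steps from CASTxBDF1 to Dnmt1 ExE, from Dnmt1 ExE to Rnf2 epiblast and from CASTxBDF1 to G9a-Glp epiblast exceeded the SD of both neighbours.

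**Figure D3:**
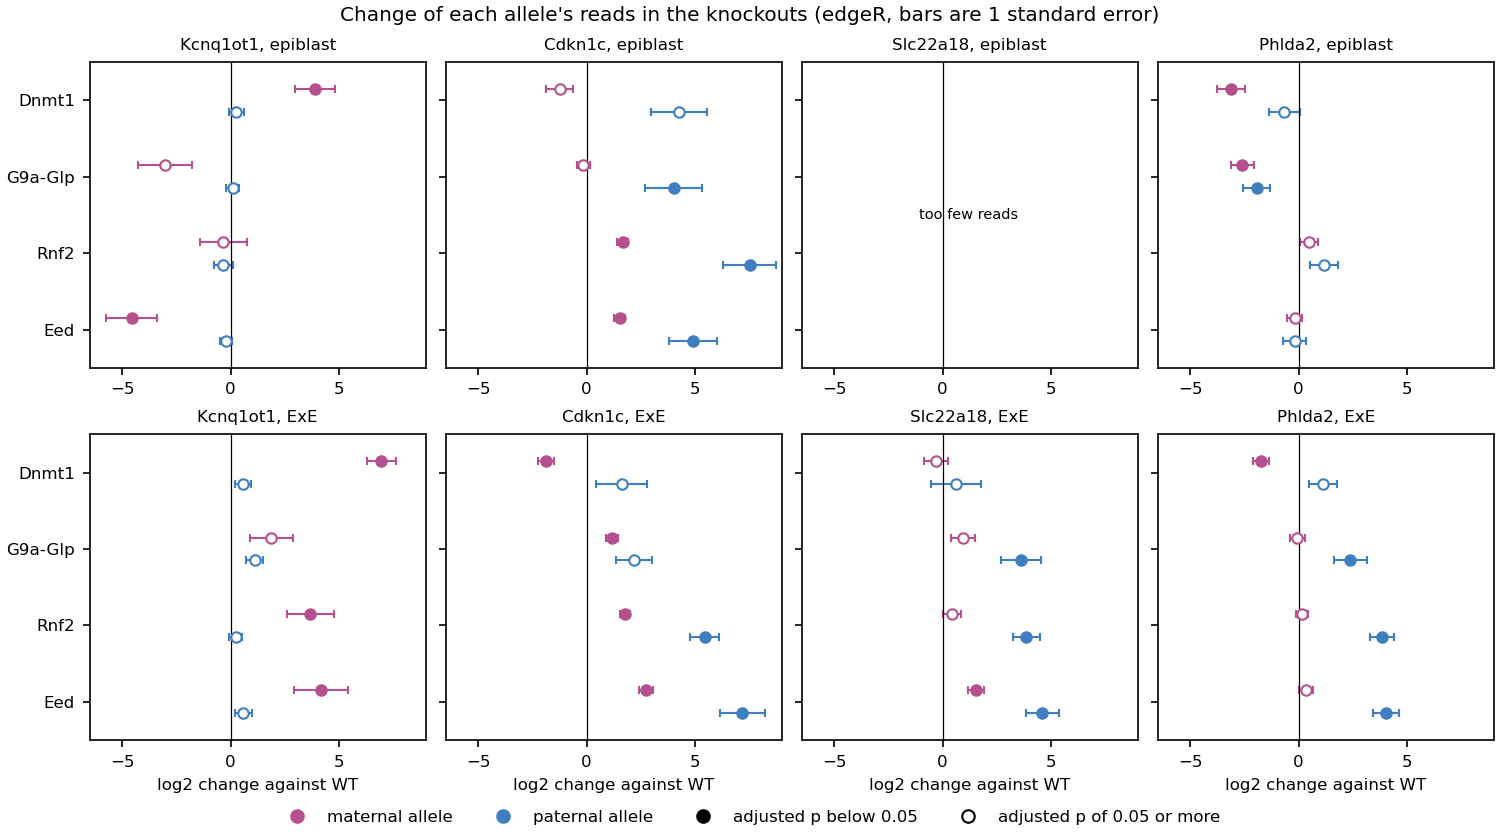
Change of the maternal (purple) and paternal (blue) reads of each member in the 4 knockouts against wild-type BDF1xCAST, as log2 fold change on the x axis with bars of 1 standard error, epiblast above and ExE below. Filled points passed the edgeR threshold. In Eed ExE the paternal alleles of Cdkn1c, Slc22a18 and Phlda2 stand at 7.19, 4.60 and 4.02, and in Dnmt1 ExE the maternal allele of Kcnq1ot1 stands at 6.95.

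Counted over members, the tests passed as follows. For total reads, 2 of 3 members passed in Dnmt1 epiblast and 3 of 4 in Dnmt1 ExE, where 13.9 and 18.5% of all genes passed, and 1 of 3 and 1 of 4 in G9a-Glp, where 34.6 and 15.1% did. For maternal reads, given for epiblast and then ExE, 2 of 3 and 3 of 4 passed in Dnmt1 (9.56 and 13.3% of genes), 1 of 3 and 1 of 4 in G9a-Glp (27.3 and 10.5%), 1 of 3 and 2 of 4 in Rnf2 (23.2 and 15.7%), and 2 of 3 and 3 of 4 in Eed (29.2 and 33.1%). For paternal reads, 0 of 3 and 0 of 4 passed in Dnmt1 (9.22 and 13.6% of genes), 2 of 3 and 2 of 4 in G9a-Glp (27.7 and 10.5%), 1 of 3 and 3 of 4 in Rnf2 (23.9 and 17.9%), and 1 of 3 and 3 of 4 in Eed (28.3 and 33.6%). For reads, the Polycomb and G9a-Glp counts of members lie near the share of all genes in several comparisons and are then no result about the members. For the ratio in epiblast, 0 of 3 members passed in each of G9a-Glp, Rnf2 and Eed, where 1.78, 0.696 and 1.06% of genes did.

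The ExE of the knockouts was also compared directly, without the wild type. Eed and G9a-Glp differed for Cdkn1c by -3.06 ± 0.60 in the log2 ratio (edgeR adjusted p 0.00279) and for Phlda2 by -1.72 ± 0.35 (edgeR adjusted p 0.00448), with the maternal share lower in Eed. These were 2 of 4 members, against 2.37% of 9133 genes. Eed and Rnf2 did not differ for any of 4 members, where 0.253% of 10293 genes were called, and the difference for Phlda2 was 0.15 ± 0.21 (edgeR adjusted p 0.958). Against Dnmt1, 0 of 3 members differed in Eed (0.681% of genes called) and 0 of 3 in Rnf2 (0.205%), and Kcnq1ot1 came nearest with -3.05 ± 0.80 (edgeR adjusted p 0.0935) and -3.11 ± 0.78 (0.163). An adjusted p above the threshold does not show that 2 knockouts act alike.

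The sexes were compared after the spread among ExE embryos had been seen, so what follows describes a pattern found in these data. In Eed ExE the 4 females had a lower maternal share than the 6 males for 3 members, with no overlap. Phlda2 stood at 65.0 to 71.0% in females and 77.0 to 86.4% in males, Cdkn1c at 84.3 to 91.5% and 93.3 to 98.5%, and Slc22a18 at 67.1 to 75.8% and 78.4 to 94.3%. The log2 ratio differed by -0.92 ± 0.12 for Phlda2 (edgeR adjusted p 0.00245), -1.76 ± 0.27 for Cdkn1c (0.00624) and -1.42 ± 0.33 for Slc22a18 (0.199). With limma neither call remained (adjusted p 0.709 for each). Across all genes 0.0529% of 9454 were called in this comparison, namely Phlda2, Cdkn1c, Atp6v0c-ps2 (a pseudogene), Tmem242 and LOC102633274, and the latter 3 were named after their values were seen. In those 3 the maternal share was higher in females.

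The maternal share of Phlda2 was also lower in females of G9a-Glp and Rnf2 ExE, short of the threshold. In G9a-Glp ExE it stood at 78.1 to 96.6% in 5 females and 97.0 to 97.1% in 3 males (-2.36 ± 0.38, edgeR adjusted p 0.0584), with 0 of 7929 genes called (0%) and 364 below an unadjusted p of 0.05. That difference passed the threshold without embryo 1, 4, 7 or 9 (edgeR adjusted p 0.0436, 0.0428, 7.46e-06 and 0.0141). It missed the threshold when any of the other embryos was left out, and passed in 5 of 14 alternatives in all. In Rnf2 ExE it stood at 62.5 and 74.0% in 2 females and 76.5 to 77.0% in 3 males (edgeR adjusted p 0.995), with 0.0125% of 8023 genes called, which is Rbm45 alone. Leaving out embryo 7 gave an adjusted p of 0.0128 (edgeR), but 1 female, embryo 6, then stands for its sex and is assumed to vary like the males. Females and males overlapped in the wild type, at 93.0 to 99.0% and 97.0 to 99.0%, with a difference in the log2 ratio of -0.92 ± 0.52 (edgeR adjusted p 0.823), as large as that in Eed but with a wider error. Between the sexes of the wild type 13 genes were called, none of them a member, against 5 in Eed. Calls between the sexes were thus not particular to the knockout. The test of whether the knockout effect itself differed between the sexes passed for none of the 3 members it could take. It gave -0.09 ± 0.54 for Phlda2 (edgeR adjusted p 1.0) and -2.41 ± 2.38 for Cdkn1c (0.916) in Eed, and the unadjusted p of Phlda2 was 0.0620 in G9a-Glp.

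Tissue markers moved with sex in Eed ExE, and their part in the result was not tested. The summed visceral endoderm markers were 23.6 to 26.7 CPM in females and 31.3 to 59.4 in males. The ectoplacental cone and giant cell sum was 302 to 313 CPM in females and 130 to 365 in males, and the ExE marker sum 347 to 476 and 302 to 621. Total Cdkn1c was 356 to 653 CPM in females and 139 to 516 in males.

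**Figure D4:**
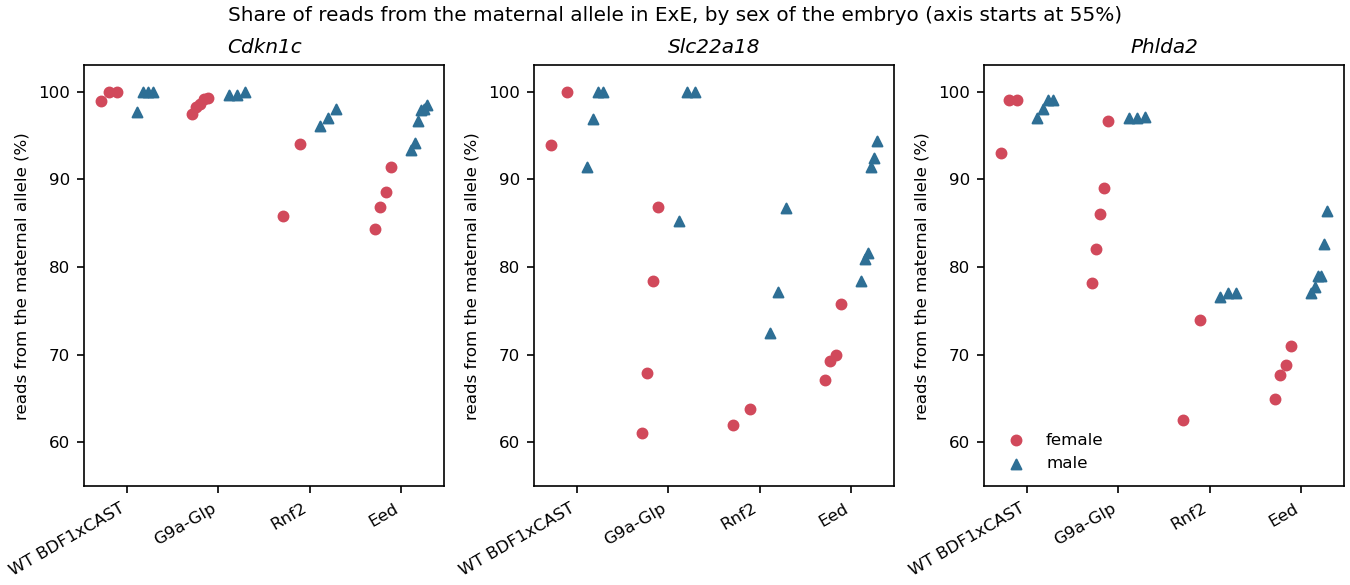
Share of reads from the maternal allele (y axis, percent, starting at 55) of Cdkn1c, Slc22a18 and Phlda2 in ExE of 4 groups, with females as circles and males as triangles. Each symbol is 1 embryo. In Eed the females lie below the males for all 3 genes, for Phlda2 at 65.0 to 71.0% against 77.0 to 86.4%.

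Marker levels also differed between genotypes in ExE. The median ExE marker sum was 691 CPM in the wild type, 757 in G9a-Glp, 551 in Rnf2 and 398 in Eed. The ectoplacental sum was 68.0 in the wild type, 107 in G9a-Glp, 281 in Rnf2 and 261 in Eed. That sum is nearly all Ascl2, itself an imprinted gene of the neighbourhood, and the defining marker Prl3d1 was at 0 in every one of these groups while Tpbpa was at 0 in the median library of each. The visceral endoderm sum had medians of 14.3 CPM in the wild type, 53.1 in G9a-Glp, 29.8 in Rnf2 and 33.5 in Eed. Its gene Afp stood at 12.9 to 111.9 CPM in G9a-Glp ExE against 0.334 to 6.79 in the wild type. Outside G9a-Glp the sum was mostly Amn, with medians of 11.1 CPM in the wild type, 23.9 in Rnf2 and 26.1 in Eed. The listed markers Ttr, Apob and Hnf4a were at 0 in the median library of each of these groups, G9a-Glp included. Decidual markers had medians of 0.359 CPM in the wild type, 0.686 in G9a-Glp, 4.87 in Rnf2 and 9.75 in Eed, mostly Des, and Dcn was at 0 in Rnf2 and Eed. The part of these tissues in the results was not tested.

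Other genes of the chromosome 7 neighbourhood moved alongside the members. Of 18 listed neighbours, 9 could be tested for the ratio in Eed ExE, and 5 shifted toward the father, Ascl2, Cd81, Tssc4, H19 and Tnfrsf22, with a median of -1.65 over the 9 against -0.01 over all genes. In Rnf2 ExE 4 of 9 did so (Ascl2, Cd81, Tssc4 and H19, median -1.49), in G9a-Glp ExE 2 of 9 (Ascl2 and Tssc4, median -0.67) and in Dnmt1 ExE 3 of 8 (Ascl2, Cd81 and H19, median -1.43). None shifted toward the mother in these 4. Of all genes, 2.66% were called for the ratio in Eed, 0.922% in Rnf2, 1.10% in G9a-Glp and 0.856% in Dnmt1 ExE, in either direction. Ascl2, a transcription factor of trophoblast progenitors, shifted by -7.45 ± 0.70 in Eed (edgeR adjusted p 5.74e-08) and -7.84 ± 0.29 in Rnf2 (8.37e-13). H19, which belongs to the neighbouring domain with its own imprint, shifted by -4.19 ± 0.82 in Eed (edgeR adjusted p 0.00261) and -6.37 ± 0.73 in Dnmt1 (1.91e-05). In the wild type 5 of 9 neighbours were maternal in ExE, Ascl2, Cd81, Tssc4, H19 and Tnfrsf22, and Igf2, a growth factor, was paternal (-2.05 ± 0.24, edgeR adjusted p 1.40e-05). In wild-type epiblast 2 of 8 were maternal, Cd81 and H19. A parental bias was called for 0.832% of all genes in wild-type ExE and 0.319% in epiblast. The epiblast shifts were fewer: H19 in Dnmt1 (1 of 5), Cd81 and Tnfrsf22 in Rnf2 (2 of 8), Cd81 in Eed (1 of 8) and 0 of 8 in G9a-Glp, all toward the father. Of all genes, 0.908, 0.696, 1.06 and 1.78% were called in these epiblasts, in the same order. These lists were drawn up with earlier results of these data known.

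In total reads the neighbours mostly rose in the Polycomb knockouts. In Eed ExE 9 of 11 passed the test upward and 0 downward, with a median of 1.12 against 0.02 over all genes, where 40.8% of all genes passed in either direction. In Rnf2 ExE 6 of 11 passed upward and 0 downward (median 0.72 against -0.03), where 22.2% of all genes passed. In epiblast 5 of 9 rose in each, Ascl2, Cd81, Tssc4, H19 and Dhcr7, where 31.1% (Rnf2) and 36.9% (Eed) of all genes passed. Osbpl5, which encodes a lipid transfer protein, rose by 2.21 ± 0.36 log2 units in Eed ExE (edgeR adjusted p 5.73e-05) and 1.93 ± 0.41 in Rnf2 ExE (0.00366). In G9a-Glp 2 of 8 rose in epiblast and 1 of 10 in ExE, where 34.6 and 15.1% of all genes passed. In Dnmt1 2 of 8 rose and 1 fell in epiblast, and 1 of 10 rose and 1 fell in ExE, where 13.9 and 18.5% passed. The G9a-Glp and the Dnmt1 ExE counts are near or below those shares and are no result about the neighbours.

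The relatives of the members by function were few in the table of tested genes. Of 6 listed CDK inhibitors 2 could be tested, and Cdkn1a, which encodes p21, rose in all 8 comparisons of total reads, by 4.78 ± 0.53 log2 units in Eed ExE (edgeR adjusted p 6.23e-07) and 2.15 ± 0.34 in Rnf2 ExE (0.000474). Cdkn2d rose in Rnf2 and Eed epiblast (0.78 ± 0.29 and 0.60 ± 0.23, edgeR adjusted p 0.0475 and 0.0456). Of 5 listed Kcne subunits, partners of the KCNQ1 channel, Kcne3 alone was tested, in Eed ExE, and rose by 3.31 ± 0.55 (edgeR adjusted p 7.36e-05). Of 2 listed relatives of Phlda2, 0 could be tested. Of 9 factors of imprint upkeep, 4 of 8 fell in Eed ExE (Trim28, Dnmt3b, Dnmt3l and Tet1) and Dppa3 rose, 4 of 7 fell in Rnf2 ExE (Zfp445, Trim28, Dnmt3b and Tet1), 3 of 7 fell and 1 rose in G9a-Glp ExE, and 0 of 7 passed in Dnmt1 ExE. All genes passed at 40.8, 22.2, 15.1 and 18.5% in these 4 comparisons. Of 11 Polycomb partners 9 were tested in ExE, where Suz12 and Jarid2 fell in Rnf2 and in Eed, Pcgf6 fell and Ezh1 and Pcgf5 rose in Eed, and 0 passed in Dnmt1 and in G9a-Glp. All genes passed at 22.2% in Rnf2, 40.8% in Eed, 18.5% in Dnmt1 and 15.1% in G9a-Glp ExE. The Rnf2 and Eed counts are near those shares and are no result about the partners.

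The genes most like each member were found over group means. By maternal share, Sgce, Peg3 and Mest were nearest to Kcnq1ot1, with mean absolute differences of 4.12, 4.56 and 5.02 percentage points over 12 groups. Rian, Meg3 and H19 were nearest to Cdkn1c (4.75, 6.26 and 9.85 points over 11 groups), and H19, Rian and Meg3 to Phlda2 (7.52, 8.18 and 9.67 over 12). Tssc4, H19 and R74862 were nearest to Slc22a18 (3.01, 3.58 and 3.84 over 5 groups). By level, the highest Pearson correlations of mean log2(CPM + 1) over 12 groups were with Aagab, Sdad1 and 2610507B11Rik for Kcnq1ot1 (0.95, 0.94 and 0.94) and with Nsmce1, Letmd1 and Arhgdib for Cdkn1c (0.94, 0.94 and 0.93). They were with Ccdc69, Dkkl1 and Brap for Slc22a18 (0.98 each) and with Alg5, S100a6 and AA467197 for Phlda2 (0.98, 0.98 and 0.97). The 12 points share libraries between tissues of an embryo and fall into 2 tissues, so these values only describe the order of the groups.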

How the data were processed

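RNA of 35 epiblast and 37 ExE libraries was sequenced after SMART-Seq v4 and Nextera XT, which keep no strand, per the labels' protocols. STAR 2.5.0, HTSeq and mm10 are listed in the submitters' processing notes. The deposited table gives for each gene and library a count of reads over polymorphisms, an allelic ratio (CAST share minus 0.5, 2 decimals) and a score (signed −log10 of a binomial p-value, as the deposited values show). From score and ratio the allele counts were recovered. A whole number matched the score within 0.0015 for 99.53% of 715649 values with at least 10 reads, and the rounded ratio set the other 3378 values, 7.533% of reads, among them every wild-type ExE value of Phlda2. Maternal shares need at least 10 reads in a library, and CPM is scaled to all reads over polymorphisms of the library.

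Ratios, total reads and the reads of each allele were tested against wild-type BDF1xCAST with edgeR 4.0.16 quasi-likelihood fits over all genes with Benjamini-Hochberg adjustment at 0.05 (R 4.3.3). Ratio tests took autosomal genes with at least 10 reads in 3 libraries of each group, and their fold is the log2 ratio of maternal to paternal reads. limma 3.58.1 on log ratios (0.5 reads added), DESeq2 1.42.0, other filters, sex, a replicate block, single libraries left out and the end of the rounding nearest to equal alleles were alternatives. In data simulated for Eed ExE, edgeR called 97.5% of 200 genes with a ratio shift of 2 log2 units among 8959, and 6.25% of its calls were false, and in Dnmt1 ExE 85.5% among 7708. For total reads changed by 1.5 log2 units, edgeR recovered 93% of 200 genes in Eed ExE and 45.5% in Dnmt1 ExE. The simulation gave all genes the same spread and kept wild-type shares off the extremes. It does not give the recovery for members with a wider spread or a more extreme share. Epiblast and ExE with the same embryo number in the labels were taken as 1 animal. The main tests between tissues did not pair them and treated the libraries as separate. A fit with the embryo as a block, paired on that number, was an alternative. For Eed embryos 8, 9 and 10 the number in the title pairs the tissues otherwise, and the embryo number was used because the labelled sexes then match. Their deviations from the group means correlated at 0.04 to 0.56 in 7 wild-type BDF1xCAST embryos and at -0.60 to 0.36 in 9 Eed embryos. The members are always named, with the 3 genes most like each by maternal share and by level, the genes called in lists of 5 or fewer calls, and the targeted genes. The members and lists were chosen with earlier results of these data known. The comparison of the sexes and the alternatives without wild-type embryos 8 and 6, with sex as a covariate of the ratio and with moved rounded shares were chosen after seeing the data. Embryos were edited one by one and are separate animals. A methylation library was not used here.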

Additional observations from a re-analysis of the deposited data

Results flagged for a closer look

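In groups of 4 to 10 libraries, 15 of 72 sets of member values held a library far from the others of its group, judged by its gap to the nearest value as a share of the whole range. For independent, normally distributed values the rule gives about 1 in 20. Many of these shares lie at an end of the scale, and the sets share libraries. The rate that chance gives here is therefore not known.

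For Kcnq1ot1 the levels that stood apart were 73.9 CPM in wild-type BDF1xCAST epiblast embryo 8 (the nearest other embryo had 33.2), 71.2 CPM in Rnf2 epiblast embryo 6 (nearest 25.1) and 66 CPM in G9a-Glp ExE embryo 7 (nearest 26.9). Its maternal share stood apart in CASTxBDF1 epiblast embryo 2 (2.63% against 0% in the others), G9a-Glp epiblast embryo 1 (8.70%, nearest 1.33%), Eed epiblast embryo 4 (3.70%, nearest 1.09%) and wild-type BDF1xCAST ExE embryo 7 (8.82% against 0%). At these read counts 1 to 3 maternal reads decide such a share.

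For Cdkn1c the maternal share of CASTxBDF1 ExE embryo 4 was 97.4%, and the nearest other embryo had 99.6%. For Slc22a18 CASTxBDF1 epiblast embryo 2 had 2.29 CPM against 0.362 in the nearest.

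For Phlda2 the maternal share stood apart at 96.4% in CASTxBDF1 epiblast embryo 2 (nearest 88.9%), 86.4% in Eed epiblast embryo 8 (nearest 93.4%), 93% in wild-type BDF1xCAST ExE embryo 6 (nearest 97.0%) and 62.5% in Rnf2 ExE embryo 6 (nearest 74.0%). Its level stood apart at 342.8 CPM in Rnf2 epiblast embryo 8 (nearest 137.5) and 220.6 CPM in Eed epiblast embryo 8 (nearest 119.4).

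In 3 cases the knockout shifted the ratio differently in ExE and epiblast by the interaction test. The difference was -3.87 log2 units for Phlda2 in Rnf2 (edgeR adjusted p 0.00292), 7.16 for Kcnq1ot1 in Eed (0.0252) and -3.93 for Phlda2 in Eed (8.97e-05).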

How the results depend on the processing

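Of the 67 changes of members that passed the threshold, 46 passed under every alternative run, and none of the 67 reversed. Their 555 alternatives gave 38 in which the change kept its direction and missed the threshold. The cause was not tested, except that leaving out libraries leaves fewer samples.

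Counts of members called moved as follows, out of 2 to 4 members tested. With DESeq2, 1 member was called for the shift in Rnf2 epiblast against 0 with edgeR, 2 for total reads in G9a-Glp ExE against 1, and 1 against 2 each for maternal reads in Dnmt1 epiblast, Eed epiblast and Rnf2 ExE, paternal reads in G9a-Glp epiblast and the Eed tissue difference. With limma on log ratios, 0 against 2 members shifted in Dnmt1 epiblast, 1 against 2 in Dnmt1 ExE, 0 against 1 in G9a-Glp ExE and 1 against 2 in Rnf2 ExE. Limma called 1 against 2 for the Eed tissue difference and 0 against 2 between the sexes in Eed ExE. Dnmt1 epiblast had 1 shift against 2 both with all groups in 1 fit and with at least 20 reads. At 20 reads a member not tested cannot be called.

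With no minimum of reads, more shifts were called: 4 against 2 in Rnf2 ExE, 2 against 1 in G9a-Glp ExE, 2 against 0 in G9a-Glp epiblast, and 1 against 0 each in Rnf2 and Eed epiblast. Between knockouts it called 2 against 0 for Eed and Dnmt1, 2 against 0 for Rnf2 and Dnmt1, and 1 against 0 for Eed and Rnf2. Between the sexes it called 4 against 2 in Eed and 1 against 0 in each of G9a-Glp and Rnf2 ExE. With no filter on low counts, 2 against 1 members passed for total reads in G9a-Glp ExE, maternal reads in G9a-Glp epiblast and paternal reads in Rnf2 epiblast, and 1 against 0 for paternal reads in Dnmt1 ExE. With the rounded shares moved toward equal alleles, 1 against 2 passed for paternal reads in G9a-Glp ExE.

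Without 1 Dnmt1 epiblast embryo at a time, 0 to 2 shifts, 0 or 1 total and 1 or 2 maternal changes remained called. Without 1 Rnf2 ExE embryo at a time the maternal changes numbered 1 or 2, those between Rnf2 and Dnmt1 0 or 1, and those between the sexes 0 or 1. The 1 came without embryo 7, when 1 female remained and was assumed to vary like the males. In G9a-Glp ExE the sex comparison also gave 0 or 1. The wild-type tissue difference of the ratio gave 0 or 1. Without wild-type epiblast embryo 8, 1 paternal change was called in Dnmt1 epiblast against 0, and 1 tissue difference in Eed against 2. Without wild-type ExE embryo 6, 1 paternal change was called in Dnmt1 ExE against 0. Without G9a-Glp epiblast embryos 2 and 7, which had the highest Ehmt1 reads of their group (embryos 4 and 5 also lay in the wild-type range), 1 paternal change was called against 2. Without Rnf2 ExE embryos 2, 5 and 6, 1 maternal change was called against 2, and 1 difference between Rnf2 and Dnmt1 against 0. These 3 had the highest Rnf2 reads, and the other 2 libraries also lay in the wild-type range.

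The changes that reversed had all missed the threshold. In log2 units, Cdkn1c total reads in G9a-Glp epiblast went from -0.0071 to 0.0074 with no filter on low counts, 0.0014 with sex as a covariate, 0.074 with the replicate block, 0.035 without wild-type embryo 8 and 0.21 without embryos 2 and 7, and its maternal reads from -0.15 to 0.027 without the latter. Kcnq1ot1 total reads there went from -0.06 to 0.21 with the block and 0.23 without wild-type embryo 8. Phlda2 total reads in G9a-Glp ExE went from 0.11 to -0.080 with sex and -0.11 with the block, and in Eed epiblast from -0.17 to 0.49 with the block. Without wild-type epiblast embryo 8, maternal Kcnq1ot1 in Rnf2 epiblast went from -0.33 to 1.02 and paternal Kcnq1ot1 in Eed epiblast from -0.19 to 0.024. Without wild-type ExE embryo 6, maternal Phlda2 in G9a-Glp ExE went from -0.05 to 0.0096. Leaving out 1 Dnmt1 ExE embryo at a time, Slc22a18 ran from -0.67 to 0.16 in total and from -0.70 to 0.11 in maternal reads. Leaving out 1 Rnf2 ExE embryo, maternal reads ran from -0.16 to 0.33 for Phlda2 and from -0.019 to 0.60 for Slc22a18.

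Across genotypes the embryo number did not pair the libraries: in none of 8 comparisons did every same-numbered pair of the wild type and a knockout correlate above 0.1, and at most 2 of 6 libraries correlated best with their own number. The block on that number, over shared numbers alone, called 2 against 1 members for total reads in G9a-Glp ExE and 3 against 2 for the shift in Rnf2 ExE. The block on the embryo called 0 against 1 for the wild-type tissue difference of the ratio and changed no other call between tissues.

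Over all genes, the shift was called for 238 genes in Eed ExE (154 with limma, 162 with the replicate block, 421 with no minimum of reads), 83 in Rnf2 ExE (15, 23 and 251), 96 in G9a-Glp ExE (37, 90 and 206) and 66 in Dnmt1 ExE (13, 74 and 164). Low reads limit Kcnq1ot1 and Slc22a18: wild-type ExE held 3 maternal reads of the former and 7 paternal reads of the latter.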
